A study of Mus musculus with 9 samples.

Results

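The livers of the 6 mice that had received either of the shRNA viruses against lnc-Helf were compared, as 1 group, with the livers of the 3 mice that had received the control virus. Together these are the 9 samples of the series. The 6 shRNA livers were chosen by their labels, 3 from the lnc-Helf-sh1# + CCl4 group and 3 from the lnc-Helf-sh2# + CCl4 group, and the comparison covered the 13059 genes that passed a filter on low counts. Every sample was RNA of whole liver from a male Balb/c mouse, labelled as 8 weeks of age, that was given carbon tetrachloride (CCl4) for 8 weeks. The 3 NC + CCl4 mice carried AAV8-NC, the negative control virus. The other mice carried AAV8-lnc-Helf-shRNA1# or AAV8-lnc-Helf-shRNA2#. All groups thus share the CCl4 injury and the AAV8 capsid, and no uninjured liver was analysed here. The labels place the virus 4 weeks after the first CCl4 dose at 1e+12 pfu per mouse, whereas the study's methods describe an earlier injection and a smaller dose.

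CCl4 is turned into a toxic radical by the cytochrome P450 enzymes of hepatocytes around the central vein. The dying hepatocytes call in monocytes, neutrophils and other leukocytes, and hepatic stellate cells become myofibroblasts that lay down collagen and other matrix proteins. Surviving hepatocytes enter the cell cycle to replace lost tissue. lnc-Helf is a long noncoding RNA from the Fmo2 locus, and the study examined it in stellate cells and in macrophages. It did so together with the splicing regulator PTBP1 and with PIK3R5, the p101 adaptor of a phosphoinositide 3-kinase (PI3K) of leukocytes. An shRNA is a hairpin that the cell cuts into a guide RNA, which then directs the cleavage of transcripts that carry the complementary sequence. Pooling the 2 hairpins asks which genes differ from the control virus on average over the 6 livers, and a gene need not pass with each hairpin.

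The shRNA oligos are shown because they define the groups, and the negative control oligo of the same list is set beside them. The study's methods describe cloning the shRNA and control oligos into a lentiviral or an AAV plasmid, and the list does not mark the control oligo as the AAV8 form, as it does the others. They are printed 5′ to 3′ from the study's oligo list, with the 19 bases of the sense strand in capitals. In the shRNA oligos the capitals are the stretch of lnc-Helf that is targeted.
lnc-Helf-shRNA1#: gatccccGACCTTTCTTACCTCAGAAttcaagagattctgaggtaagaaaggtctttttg
lnc-Helf-shRNA2#: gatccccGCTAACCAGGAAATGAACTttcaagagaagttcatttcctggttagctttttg
Negative control: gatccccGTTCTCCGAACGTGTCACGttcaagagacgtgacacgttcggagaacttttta

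In GRCm38 with the GENCODE annotation, lnc-Helf is a transcript of the retained intron type, of 680 bases in 2 exons, on the minus strand at chr1:162897681-162898720. Of its bases, 179 lie in exons of coding Fmo2 transcripts and 501 do not. The target of shRNA1# is at chr1:162898147-162898165 and starts at base 196 of the transcript. The target of shRNA2# is at chr1:162898034-162898052 and starts at base 309. Both are in exon 2, outside the coding Fmo2 exons, and each was found in 1 annotated transcript. The stretch of the negative control oligo was found in 0 annotated transcripts.

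The libraries held 14265875 to 16816431 expected counts, of which 6.81 to 12.4% came from albumin (Alb). Levels are given in CPM, counts scaled to a common library total after adjustment of the totals by TMM factors of 0.882 to 1.07. In bulk RNA, fewer cells of a type and less RNA per cell cannot be told apart. The first principal component, with 33.8% of the variance, placed the NC + CCl4 livers at -37.8 to -27.6 and 5 shRNA livers at 14.7 to 29.4. Replicate 3 of lnc-Helf-sh1# + CCl4 stood apart at -16.0, nearer to the controls than to the other shRNA livers.

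Transcript length went with the pooled fold change, though not alike in every liver. With the genes in 5 equal classes of effective length, from the shortest to the longest, the median log2 fold change (shRNA minus NC) went from 0.20 through 0.10, 0.02 and -0.05 to -0.15. Genes that passed an adjusted p of 0.05 as higher in the shRNA livers had a median length of 2015 bases and those lower 3826 bases, against 2673 bases for all genes tested. A fit with a length term, chosen after seeing the data, gave 264 higher and 244 lower genes in place of 131 and 306. Some of its list counts are given below. Which of the differences below are due to length was not tested.

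**Figure D1:**
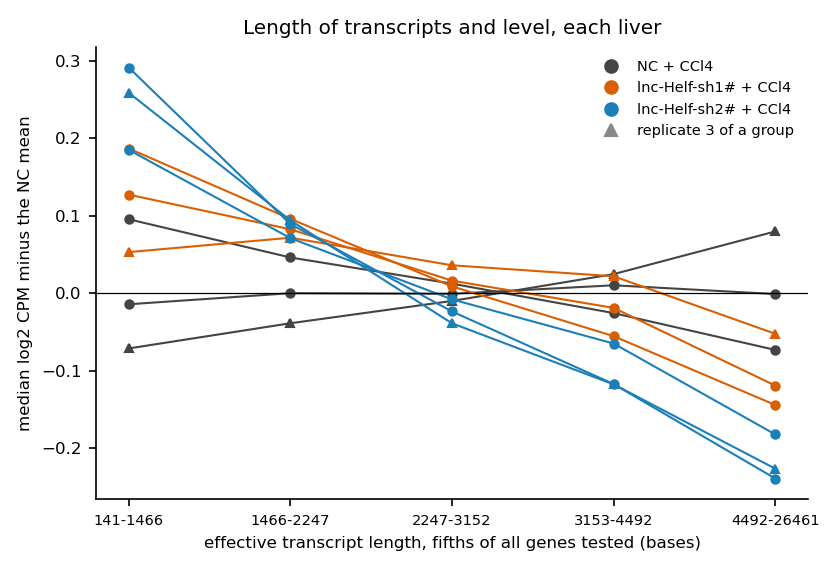
Median level of genes in 5 classes of effective transcript length (bases), as log2 CPM minus the mean of the 3 NC + CCl4 livers, 1 line per liver. Each shRNA line is lower in the longest than in the shortest class, with medians of the fold change from 0.20 to -0.15. Replicate 3 of lnc-Helf-sh1# + CCl4 goes only from 0.05 to -0.05. The lines of the control livers spread to both sides of 0, where replicate 1 falls from 0.10 to -0.07 and replicate 3 rises from -0.07 to 0.08.

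Fmo2, the gene that contains lnc-Helf and encodes a flavin-containing monooxygenase, fell in the shRNA livers. It measured 227, 202 and 265 CPM in the NC + CCl4 livers, 109, 122 and 104 CPM with lnc-Helf-sh1# and 174, 141 and 88.2 CPM with lnc-Helf-sh2#. All 6 shRNA values lay below the lowest control. The pooled log2 fold change was -0.91 (standard error 0.19, adjusted p = 0.0398, edgeR's quasi-likelihood test), a level 1.88-fold lower. An exact two-sided permutation test of its mean log2 CPM over the 84 ways to choose 3 of the 9 livers gave p = 0.0119, the smallest p it can give. The table has 1 value per gene, so reads of lnc-Helf are not separated from those of coding Fmo2, and both targets lie outside the coding exons. Fmo2 also belongs to a list of liver genes with higher expression in females, of which 14 of 16 had a negative fold change (median -0.55) and 1, Fmo2 itself, fell. Of the 15 genes of that list tested without replicate 3 of lnc-Helf-sh1# + CCl4, 4 fell, beside 1002 of all 12984 genes tested. Whether the hairpins or that wider shift lowered Fmo2 was not tested.

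Across all genes, more genes fell than rose. At an adjusted p under 0.05 in edgeR, 131 genes rose (1.00% of those tested) and 306 fell (2.34%). With a fold change above 2 as well, the study's threshold and the one meant by "called" here, 13 genes rose (0.0995%) and 145 fell (1.11%). The median log2 fold change of all genes was 0.02. Of the 158 called genes, 138 had no overlap between the 6 shRNA and the 3 control livers. Over all genes tested, 1013 had every shRNA liver above every control (7.76%) and 934 every shRNA liver below (7.15%). DESeq2 called 153 of the same 158 genes, and 385 in all.

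**Figure D2:**
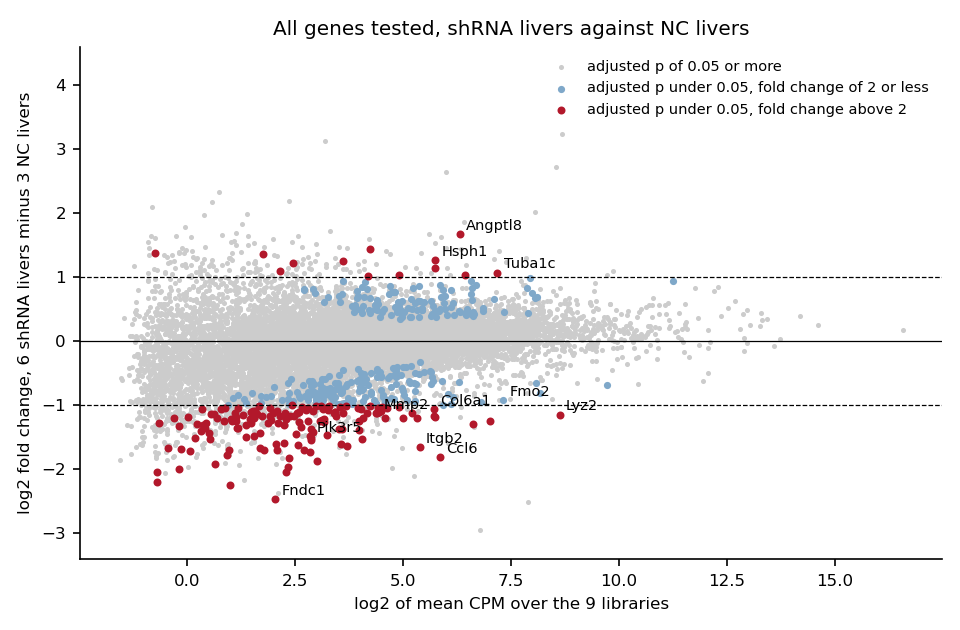
Log2 fold change (6 shRNA livers minus 3 NC + CCl4 livers) against the log2 of the mean CPM for each gene tested. Red points are the 158 called genes (13 higher, 145 lower), blue points passed the adjusted p alone, and the dashed lines mark a fold change of 2.

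The number of called genes rested on single livers. Without NC + CCl4 replicate 1 or replicate 3, 0 genes passed (smallest adjusted p 0.109 and 0.106, edgeR), so none of the calls named below passed in either of these fits. Without replicate 2 of the controls, 236 genes were called. Without replicate 3 of lnc-Helf-sh1# + CCl4, 500 genes were called (67 higher, 433 lower). Past the adjusted p alone, 699 rose and 1002 fell of 12984 tested, the background for list counts from that fit. The omission of another shRNA liver gave 6 to 214 called genes and 16 to 548 past the adjusted p. List counts below leave out a single liver only for replicate 3 of lnc-Helf-sh1# + CCl4, the omission with the most genes past the adjusted p. With all 9 livers 3630 genes had an unadjusted p under 0.05. The direction split also depended on the scaling: of the genes past the adjusted p, 131 rose and 306 fell with TMM, 60 rose and 927 fell with library totals alone, and 264 rose and 244 fell with a length term. With library totals alone the median log2 fold change of all genes was -0.12 in place of 0.02. Of the genes named, 10 passed the adjusted p in each of the other 7 fits with a liver left out, and these were Khnyn, Mis12, Dnmbp, Vsir, Hip1, Fndc1, Fam98a, Tubb4b, Ctss and Kbtbd8.

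**Figure D3:**
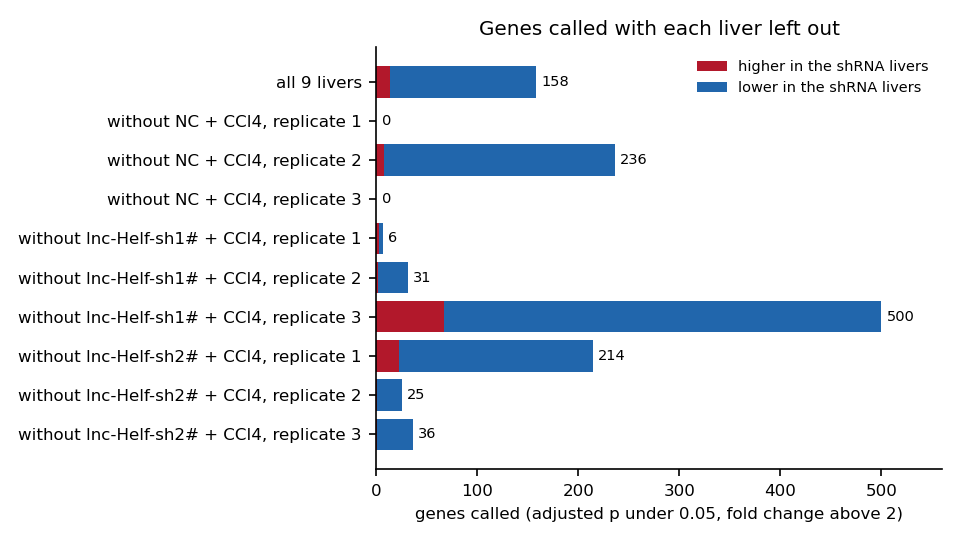
Number of called genes (adjusted p under 0.05 and fold change above 2) with all 9 livers and with each liver left out, split into higher (red) and lower (blue) in the shRNA livers. The count is 158 with all livers, 0 without NC + CCl4 replicate 1 or 3, and 500 without lnc-Helf-sh1# + CCl4 replicate 3.

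Genes of the extracellular matrix were among the largest decreases. Fndc1, a secreted protein with fibronectin type III domains, measured 8.51, 4.65 and 14.2 CPM in the controls and between 1.25 and 2.39 CPM in the shRNA livers, with a median of 1.47. The highest shRNA liver was below the lowest control, and the gene fell 5.5-fold (log2 fold change -2.46, standard error 0.32, adjusted p = 0.018, exact permutation p = 0.0119). It met a naming rule that asks for no overlap between the groups, so the permutation p adds little. Of 29 matrix glycoproteins and proteoglycans (median -0.66), 0 rose and 4 fell, where 1.00% of all genes tested rose and 2.34% fell. The mean log2 CPM of the 29 minus the control mean was -0.23, -0.17 and 0.40 in the controls and -1.03 to -0.27 in the shRNA livers. The omission of replicate 3 of lnc-Helf-sh1# + CCl4 gave 9 lower and 1 higher, beside 1002 and 699 of all 12984 genes tested. With a length term in the fit 4 fell and 1 rose, beside 244 and 264 of all 13059. With all livers and no length term, the others that fell were the basement-membrane and elastic-fibre proteins Fbln1 (log2 fold change -1.66, the quantity given first in such parentheses from here on, adjusted p = 0.0361) and Fbln2 (-1.69, adjusted p = 0.0342), and the collagen-binding proteoglycan Dcn (-0.66, adjusted p = 0.0453).

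Chains of collagen VI, which form beaded filaments around cells, fell. Col6a1 measured 63.9, 54.7 and 122 CPM in the controls and 23.8 to 43.6 CPM in the shRNA livers (median 40.7). The groups did not overlap, and replicate 3 of lnc-Helf-sh1# + CCl4 was the lowest (log2 fold change -1.06, standard error 0.24, adjusted p = 0.0462). Col6a2 (-1.11, adjusted p = 0.0488) and Col6a5 (-1.73, adjusted p = 0.0356) also fell, 3 of the 5 collagen VI chains tested, a family picked after its values were seen. Col1a1, the main chain of scar collagen, measured 159.6, 106 and 229 CPM in the controls and 45.9 to 229 CPM with the shRNAs. Its ranges overlapped widely and it did not pass (-0.34, standard error 0.40, adjusted p = 0.607). Of 17 collagen chains on a list that does not hold Col6a5, 2 fell (median -0.44), 4 fell without replicate 3 of lnc-Helf-sh1# + CCl4, and with the length term 0 did. Over all genes tested 2.34% fell with all livers, 1002 of 12984 without that liver and 244 of 13059 with the length term. The list mean, as log2 CPM minus the control mean, was -0.16, -0.14 and 0.30 in the controls and -0.90 to -0.07 with the shRNAs. Replicate 1 of lnc-Helf-sh2# + CCl4, at -0.07, lay within the control range. The median length of the list is 5768 bases.

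Matrix proteases and their inhibitors fell in 3 of 24 cases, with a median of -0.69, and in 6 without replicate 3 of lnc-Helf-sh1# + CCl4. Over all genes tested 2.34% fell with all livers, and 1002 of 12984 fell without that liver. Mmp2, a gelatinase made by stellate cells and fibroblasts, measured 22.5, 30.0 and 46.5 CPM in the controls and 9.56 to 18.1 CPM in the shRNA livers (median 16.2). All shRNA livers lay below the controls (log2 fold change -1.11, standard error 0.22, adjusted p = 0.0366). Its inhibitor and partner Timp2 fell too (-0.99, adjusted p = 0.0462), while Timp1, another inhibitor, measured 9.74, 3.53 and 9.03 CPM against 2.42 to 7.42 CPM and did not pass (-0.86, adjusted p = 0.164). The heparan-sulphate editing enzyme Sulf1 (-1.44, adjusted p = 0.0493) and the guidance ligand Slit3 (-1.60, adjusted p = 0.0462) fell, as did Aebp1 (-1.24, adjusted p = 0.0473), a collagen-binding protein of fibroblasts.

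Some receptors of stellate cells and fibroblasts fell as well. Pdgfra, a receptor for platelet-derived growth factor, measured 19.6, 27.6 and 40.6 CPM in the controls and 13.6 to 18.8 CPM in the shRNA livers, below every control (log2 fold change -0.92, standard error 0.19, adjusted p = 0.0398). Ddr2, a collagen-sensing receptor, fell (-0.78, adjusted p = 0.0462), and so did Tgfbr3 (-0.97, adjusted p = 0.0412), a co-receptor of transforming growth factor beta. Pdgfrb, the other receptor of that family, was at -0.52 (adjusted p = 0.148). Acta2, the smooth muscle actin of myofibroblasts, measured 7.63, 2.74 and 8 CPM in the controls and 1.9 to 6.79 CPM with the shRNAs. The ranges overlapped, and the difference did not pass (-0.76, standard error 0.41, adjusted p = 0.245). Tgfb1, the ligand that drives stellate cells, was below every control in the 6 shRNA livers (14.6 to 23.8 CPM against 31.6, 26.2 and 30.6 CPM) and missed the threshold narrowly (-0.58, adjusted p = 0.0504). Of 19 stellate cell and myofibroblast markers 1 fell (2.34% of all genes tested fell), with a median of -0.18, and 0 fell with the length term.

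Many leukocyte genes fell. In the gene lists examined, 22 of 22 Fc receptor and immunoreceptor signalling genes and 22 of 22 monocyte and monocyte-derived macrophage genes had negative fold changes, with medians of -0.83 and -0.81. In the first list 5 fell, or 3 with the length term, and in the second 4, or 5 with it. Leukocyte integrins and adhesion molecules fell in 5 of 15 cases (median -0.89), Toll-like receptors and adaptors in 4 of 23 (median -0.57), chemokines and their receptors in 3 of 33 (median -0.75), and genes of MHC class II presentation in 2 of 11 (median -0.95). In each of these lists 0 genes rose, and over all genes tested 2.34% fell and 1.00% rose.

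How many of them passed moved with replicate 3 of lnc-Helf-sh1# + CCl4. Its mean over the monocyte list, as log2 CPM minus the control mean, was -0.37, against -1.19 to -0.78 in the other shRNA livers and -0.21 to 0.27 in the controls. In the MHC class II list it stood at -0.13, within the control range of -0.65 to 0.60, against -1.28 to -0.72 in the other shRNA livers. Without it, 20 of the 22 Fc receptor genes, 16 of the 22 monocyte genes, 12 of the 32 chemokine genes tested in that fit, 12 of the 23 Toll-like receptor genes, 10 of the 15 adhesion genes and 9 of the 11 MHC class II genes fell. Over all genes tested in that fit, 1002 of 12984 fell and 699 rose. The list counts rested on the controls as well, since none passed without control replicate 1 or 3. Over all genes, 16 passed without replicate 1 and 76 without replicate 2 of lnc-Helf-sh1# + CCl4. Without replicate 1, 2 or 3 of lnc-Helf-sh2# + CCl4, 548, 82 and 84 passed. The lists were not counted in these fits.

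Lyz2, the lysozyme of macrophages and neutrophils, measured 789, 379 and 701 CPM in the controls and 217 to 375 CPM in the shRNA livers (median 268). The lowest control stood just above the highest shRNA liver (log2 fold change -1.14, standard error 0.23, adjusted p = 0.0366). Ccl6, a chemokine of myeloid cells, measured 169.6, 43.6 and 118 CPM against 19.4 to 43.4 CPM. Here too 1 control was close to the shRNA livers and the others were far above them (log2 fold change -1.81, standard error 0.34, adjusted p = 0.0342). Ccr2, the receptor that brings monocytes out of the bone marrow, fell (-1.12, adjusted p = 0.0442) although the ranges overlapped slightly (21.1, 17.1 and 11.7 CPM in the controls, up to 12.1 with the shRNAs). Csf1r, the receptor for the macrophage growth factor, fell by less (-0.63, adjusted p = 0.0453), with 101, 109 and 97 CPM against 54.2 to 86.5 CPM and no overlap.

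Itgb2, the beta chain shared by leukocyte integrins, measured 113, 49.3 and 68.5 CPM in the controls and 14.9 to 52.2 CPM with the shRNAs (median 19). It fell (log2 fold change -1.65, standard error 0.37, adjusted p = 0.0453), and the highest shRNA value, from replicate 3 of lnc-Helf-sh1# + CCl4, lay above the lowest control. Itgam, an alpha chain that pairs with it on monocytes and neutrophils, was at -1.98 and just missed the threshold (standard error 0.50, adjusted p = 0.0504). Itga4, the chain that binds VCAM1, fell without overlap (a mean of 20.9 CPM in the controls against 11.1 with the shRNAs, log2 fold change -0.91, standard error 0.16, adjusted p = 0.0298), and Vcam1 itself fell (-0.61, adjusted p = 0.0412). Selplg, the ligand of selectins on leukocytes, fell (-1.04, adjusted p = 0.0341), and Itgb7, the chain of gut-homing lymphocytes, fell (-1.69, adjusted p = 0.0413).

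Among receptors and their signalling partners, Fcgr3, which binds immunoglobulin G, measured 40.4, 25 and 41.8 CPM in the controls and 15.4 to 22.5 CPM in the shRNA livers. The groups did not overlap (log2 fold change -0.91, standard error 0.17, adjusted p = 0.0338). The adaptor Tyrobp (-0.77, adjusted p = 0.0356) and the kinase Syk (-1.01, adjusted p = 0.0427), which pass on signals from such receptors, fell as well. The endosomal RNA sensors Tlr7 (-1.03, adjusted p = 0.0342), Tlr8 (-1.09, adjusted p = 0.0228) and Tlr13 (-1.12, adjusted p = 0.0298) fell. Tlr8 measured 17, 18 and 15.3 CPM in the controls and 5.4 to 9.81 CPM with the shRNAs. The receptors for complement fragments, C3ar1 (-1.19, adjusted p = 0.0356) and C5ar1 (-1.48, adjusted p = 0.0383), and the receptor for platelet-activating factor, Ptafr (-1.50, adjusted p = 0.0231), fell. Vsir, an inhibitory receptor of myeloid and T cells, was among the genes with the smallest adjusted p, with 35.7, 25.8 and 35.3 CPM against 12.5 to 17.2 CPM (log2 fold change -1.11, standard error 0.14, adjusted p = 0.018).

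Several leukocyte markers did not pass. Adgre1, the F4/80 antigen of macrophages, measured 55.8, 71 and 29.5 CPM in the controls, 15.1, 21 and 73.1 CPM with lnc-Helf-sh1# and 14.6, 11.5 and 14.4 CPM with lnc-Helf-sh2#. Its highest value of all 9 livers was in replicate 3 of lnc-Helf-sh1# + CCl4, and the pooled difference was -1.06 (standard error 0.54, adjusted p = 0.222, exact permutation p = 0.0833). Tnf (-1.58, adjusted p = 0.0907), Ccl2 (-0.80, adjusted p = 0.0709), Il1b (-0.45, adjusted p = 0.563) and Ly6c2 (-1.60, adjusted p = 0.127) did not pass either. Of 15 Kupffer cell markers 1 fell (median -0.41), where 2.34% of all genes tested fell. With replicate 3 of lnc-Helf-sh1# + CCl4 left out, 6 of the 15 fell and 1 rose (median -0.50). In that fit 1002 of all 12984 genes tested fell and 699 rose. Of 11 T and NK cell markers 0 fell (median -0.90), or 2 without that liver, where the controls themselves ranged from -0.86 to 0.54 in the list mean.

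Ctss, the protease that trims antigens for MHC class II in myeloid cells, is shown with its promoter for 2 reasons. It was among those 10 genes, and its promoter held the match described below. It measured 201, 132 and 163 CPM in the controls and 73.5 to 96.1 CPM in the shRNA livers (median 83.3). The groups did not overlap, and it fell 1.94-fold (log2 fold change -0.95, standard error 0.14, adjusted p = 0.0228). Spi1, which encodes the myeloid transcription factor PU.1, also fell (33, 22.2 and 25.4 CPM against 12.4 to 21.4 CPM, log2 fold change -0.80, standard error 0.19, adjusted p = 0.0473). The letters GAGGAAGT, a form of the sequence PU.1 binds, were searched on both strands of the promoters in the RefSeq table (GRCm38.p6, 250 bases before to 50 after the start). In the promoter of Ctss at chr3:95526536-95526835, plus strand, the match is on the opposite strand and is written in capitals.
Ctss promoter: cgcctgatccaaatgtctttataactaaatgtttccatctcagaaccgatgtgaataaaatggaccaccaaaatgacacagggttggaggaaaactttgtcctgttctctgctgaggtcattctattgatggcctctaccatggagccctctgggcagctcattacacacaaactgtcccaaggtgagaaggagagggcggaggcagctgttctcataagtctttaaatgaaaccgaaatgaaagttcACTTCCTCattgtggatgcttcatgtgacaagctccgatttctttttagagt

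The match was present in 15 of the 233 genes that fell and had a promoter in the table (6.44%), in 3 of the 108 that rose (2.78%) and in 396 of the 10432 tested genes with a promoter (3.8%). The 15 included Ctss, Inpp5d, Itgb7, F13a1 and Fmo2. These shares are descriptive and were not tested, and a match is no sign that the factor binds.

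**Figure D4:**
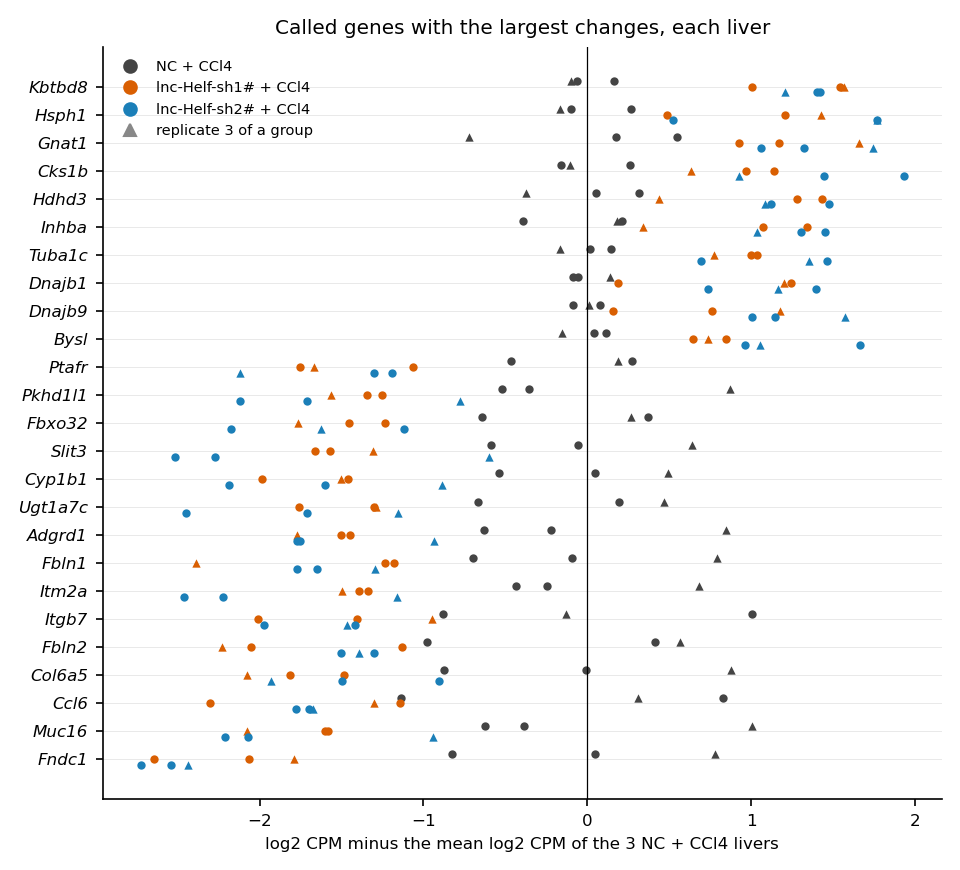
Level of 25 called genes in each liver, as log2 CPM minus the mean of the 3 NC + CCl4 livers; gray points are controls, orange lnc-Helf-sh1# + CCl4, blue lnc-Helf-sh2# + CCl4, and triangles replicate 3 of a group. These are the 10 higher and the 15 most lowered genes without overlap between the groups and with a mean of 50 or more normalized counts, unnamed gene models such as Gm3776 left out, from Kbtbd8 at 1.36 to Fndc1 at -2.46.

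Of 7 leukocyte PI3K genes 3 fell, among them the adaptor genes Pik3r5 and Pik3r6. Over all genes tested 2.34% fell. Pik3r5 measured 16.7, 9.35 and 11.9 CPM in the controls and 2.7 to 8.15 CPM in the shRNA livers (median 3.97). No shRNA liver reached the lowest control, and the highest, at 8.15 CPM, was replicate 3 of lnc-Helf-sh1# + CCl4 (log2 fold change -1.48, standard error 0.30, adjusted p = 0.0366, exact permutation p = 0.0119). Pik3r6, the other adaptor of the same kinase (-1.13, adjusted p = 0.0462), fell. So did Inpp5d, the SHIP1 phosphatase that removes the lipid product of PI3K in blood cells (21, 14.8 and 16.5 CPM against 5.89 to 10.5 CPM, log2 fold change -1.17, standard error 0.18, adjusted p = 0.0231). The median of the 7 was -0.99. Without replicate 3 of lnc-Helf-sh1# + CCl4 5 of them fell, beside 1002 of all 12984 genes tested. The 7 are also markers of blood cells. Over the same livers the monocyte list stood at -0.21 to 0.27 in the controls and -1.19 to -0.37 with the shRNAs. The part of leukocyte content in the level of Pik3r5 was not tested.

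Of 29 broadly expressed PI3K, AKT and mTOR genes, 1 fell, where 2.34% of all genes tested fell, and the median was -0.09. It was Rictor, a subunit of the mTORC2 complex (-0.49, adjusted p = 0.048). When replicate 3 of lnc-Helf-sh1# + CCl4 was omitted, 3 of the 29 fell, beside 1002 of all 12984 genes tested. With the length term Rictor's list had 0 lower and 1 higher gene. Pik3ip1, an inhibitor of PI3K that is not on either list, fell (-1.35, adjusted p = 0.0488). Ptbp1, the splicing regulator that the study examined, measured 140.0, 136 and 156 CPM in the controls and 155 to 165 CPM in the shRNA livers. The ranges overlapped and the difference was 0.14 (standard error 0.09, adjusted p = 0.315). Its sign turned negative, at a value near zero, in limma on log2 FPKM.

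Several enzymes of hepatocytes fell while the families they belong to showed no common direction. Cyp8b1, the sterol hydroxylase that sets the balance of bile acids, measured 232, 254 and 144 CPM in the controls and 60.2 to 139 CPM in the shRNA livers. The highest shRNA liver was just below the lowest control (log2 fold change -1.25, standard error 0.24, adjusted p = 0.0356). Cyp2c37 measured 131, 136 and 222 CPM against 35.3 to 93.1 CPM, without overlap (log2 fold change -1.29, standard error 0.25, adjusted p = 0.0356). It was the 1 gene that fell of 42 on a list of cytochrome P450 genes, which does not hold Cyp1b1 and had a median of 0.09. Of all genes tested 2.34% fell. In the fit without replicate 3 of lnc-Helf-sh1# + CCl4, 6 of 41 P450 genes fell and 3 rose. There 1002 of all 12984 genes tested fell and 699 rose. Cyp2e1, the enzyme that activates CCl4, measured 5506, 4477 and 5361 CPM in the controls and 2276 to 3928 CPM with the shRNAs. All 6 were below the controls, yet the difference did not pass (-0.62, standard error 0.20, adjusted p = 0.0785).

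Other metabolic genes that fell were Ugt1a7c, a glucuronosyltransferase (11.7, 6.44 and 14.1 CPM against 1.86 to 4.57 CPM, log2 fold change -1.63, standard error 0.28, adjusted p = 0.0298), though reads may be shared among transcripts of the Ugt1a locus. Retsat, which saturates retinol, measured 400.1, 335 and 479 CPM against 186 to 272 CPM. It fell without overlap (log2 fold change -0.81, standard error 0.14, adjusted p = 0.0305), as did Aldh1a3, a retinaldehyde dehydrogenase at low level (-2.19, adjusted p = 0.0342). Glul, glutamine synthetase of the hepatocytes next to the central vein, fell (113, 78.1 and 88.4 CPM against 40.1 to 65.6 CPM, log2 fold change -0.82, standard error 0.17, adjusted p = 0.0398), while the 18 pericentral genes had a median of 0.09. Cyp1b1, a P450 found mainly in mesenchymal cells, fell (-1.60, adjusted p = 0.0257), and so did the prostacyclin synthase Ptgis (-1.23, adjusted p = 0.0317) and the thromboxane synthase Tbxas1 (-1.34, adjusted p = 0.0453).

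Genes of fat metabolism differed strongly between single livers. Cyp4a14, a target of the fatty acid sensor PPARA, measured 286, 137 and 366 CPM in the controls, 6.27, 9.63 and 11.3 CPM with lnc-Helf-sh1# and 97.6, 75.4 and 5.68 CPM with lnc-Helf-sh2#. All 6 shRNA livers lay below the controls, but the values spread widely and the difference did not pass (-2.94, standard error 0.85, adjusted p = 0.0655). Of 34 fatty acid oxidation genes 0 passed, with a median of -0.22. Without replicate 3 of lnc-Helf-sh1# + CCl4 2 fell, beside 1002 of all 12984 genes tested. Of 22 lipogenesis genes 20 had positive fold changes (median 0.57) and 1 rose, Angptl8, a secreted regulator of lipoprotein lipase induced by feeding. Without replicate 3 of lnc-Helf-sh1# + CCl4 3 rose, and with the length term 0 did. Over all genes tested 1.00% rose with all livers, 699 of 12984 without that liver and 264 of 13059 with the length term. Angptl8 measured 17.5, 30.4 and 49.3 CPM in the controls, 121, 128 and 47.9 CPM with lnc-Helf-sh1# and 105, 157 and 64.5 CPM with lnc-Helf-sh2#. Replicate 3 of lnc-Helf-sh1# + CCl4 lay within the control range, and the adjusted p was just under the threshold (1.68, standard error 0.41, adjusted p = 0.04998).

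Gstp1, a glutathione transferase that is higher in male mouse liver, rose. It measured 1604, 1504 and 1427 CPM in the controls and 1806 to 3464 CPM in the shRNA livers (median 3063). All shRNA livers were above the controls, with replicate 3 of lnc-Helf-sh1# + CCl4 the lowest (log2 fold change 0.95, standard error 0.21, adjusted p = 0.0432). Gstm7 rose too (0.59, adjusted p = 0.0342), and 20 of the 21 glutathione transferases had positive fold changes (median 0.38). Of the 21, 2 rose with all livers and 8 without replicate 3 of lnc-Helf-sh1# + CCl4. Over all genes tested 1.00% rose with all livers and 699 of 12984 without that liver. The Gstp and Gstm genes have close copies among which reads may have been split, so these levels are uncertain. Cbs, which turns homocysteine into cystathionine, rose (0.69, adjusted p = 0.0412), as did the hepatocyte and bile duct keratins Krt8 (0.67, adjusted p = 0.0416) and Krt18 (0.83, adjusted p = 0.0356). The duct keratin Krt19 was at -0.96 (adjusted p = 0.0885).

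Some protein-folding genes rose. Hsph1, the HSP110 chaperone that helps to dissolve aggregates, measured 25.6, 32.9 and 24.3 CPM in the controls, 38.4, 63.2 and 73.7 CPM with lnc-Helf-sh1# and 39.3, 93.3 and 93.4 CPM with lnc-Helf-sh2#. Every shRNA liver was above the controls, and replicate 1 of each shRNA group was the closest to them (log2 fold change 1.28, standard error 0.30, adjusted p = 0.048). Dnajb1, a partner of cytosolic HSP70, measured 17, 16.6 and 19.4 CPM against 20.1 to 46.3 CPM (median 40.0), again with replicate 1 lowest in both groups (log2 fold change 1.04, standard error 0.23, adjusted p = 0.0442). Hsp90aa1, the inducible HSP90, rose (0.99, adjusted p = 0.0462), as did Dnaja1 (0.76, adjusted p = 0.0356) and Stip1, which links HSP70 to HSP90 (0.84, adjusted p = 0.0366). Of 55 genes of the HSP70, HSP90, HSP110 and DNAJ families, 5 rose and 0 fell (median 0.31). Over all genes tested 1.00% rose and 2.34% fell. The set of 55 genes was gathered by symbol after values were seen.

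The inducible HSP70 genes were far more uneven. Hspa1b measured 12.6, 12.3 and 17.8 CPM in the controls, 13.5, 119 and 146 CPM with lnc-Helf-sh1# and 12.2, 146 and 98.2 CPM with lnc-Helf-sh2#. Replicate 1 of each shRNA group was at the level of the controls and the other 4 livers were far above it. It did not pass (2.65, standard error 0.80, adjusted p = 0.0719). Hspa1a, a near-identical copy with which reads may be shared, had the same pattern (3.13, adjusted p = 0.0793).

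A heat shock element was searched on both strands of the same RefSeq promoters, as GAA, TTC and GAA or as TTC, GAA and TTC with 2 free bases between the units. The promoter of Hsph1, at chr5:149636287-149636586 on the minus strand, held the element, and it is shown because it was the 1 gene with a match among the 108 genes that rose and were in the table (0.926%). The capitals mark the match, which lies after the annotated start.
Hsph1 promoter: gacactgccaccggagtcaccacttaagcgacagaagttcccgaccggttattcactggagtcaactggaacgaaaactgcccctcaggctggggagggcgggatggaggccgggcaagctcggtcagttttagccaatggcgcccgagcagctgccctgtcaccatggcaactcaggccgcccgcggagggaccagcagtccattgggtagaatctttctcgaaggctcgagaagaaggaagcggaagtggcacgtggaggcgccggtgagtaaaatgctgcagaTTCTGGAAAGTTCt

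Of the tested genes with a promoter, 0.518% held this element, and 1 of the 233 genes that fell did (0.429%). The ER stress response element, searched on both strands of the same promoters, was found in 0 of the 108 genes that rose, in 0 of the 233 that fell and in 0.192% of the tested genes with a promoter. These shares are descriptive as well.

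Genes of the endoplasmic reticulum leaned the same way as the cytosolic chaperones. Of 35 chaperones and unfolded protein response genes, 32 had positive fold changes (median 0.54), and 2 rose. The list mean was -0.088, 0.292 and -0.204 in the controls, 0.286, 0.257 and 0.547 with lnc-Helf-sh1#, and 0.472, 0.751 and 1.03 with lnc-Helf-sh2#. Replicates 1 and 2 of lnc-Helf-sh1# + CCl4 thus lay within the control range. Dnajb9, a co-chaperone of BiP, measured 47.9, 53.7 and 51.4 CPM against 56.9 to 152 CPM (median 108, log2 fold change 1.03, standard error 0.24, adjusted p = 0.048). Xbp1, the transcription factor of the unfolded protein response, rose by less (142, 129 and 114 CPM against 157 to 194 CPM, log2 fold change 0.46, standard error 0.11, adjusted p = 0.0462). Hspa5, BiP itself, measured 455, 754 and 378 CPM against 787 to 1798 CPM. Its lowest shRNA liver was above the highest control, yet it did not pass (1.10, standard error 0.31, adjusted p = 0.0645). Without replicate 3 of lnc-Helf-sh1# + CCl4 8 genes of the list rose, and with the length term 6 did. Over all genes tested 1.00% rose with all livers, 699 of 12984 without that liver and 264 of 13059 with the length term.

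Of 13 tubulins, the subunits of microtubules, 4 rose, 1 fell and 8 did not pass. Over all genes tested 1.00% rose and 2.34% fell. Tuba1c measured 84.4, 92.3 and 74.2 CPM in the controls and 135 to 229.9 CPM in the shRNA livers (median 169), without overlap (log2 fold change 1.08, standard error 0.18, adjusted p = 0.0293). Tubb4b (0.95, adjusted p = 0.0228), Tuba4a (0.89, adjusted p = 0.0342) and Tubg1, the gamma-tubulin that starts microtubules (0.77, adjusted p = 0.0473), rose. Tubb4a, at low level, fell (-1.43, adjusted p = 0.0366). Reads may be split between the alpha-tubulins, and this family was also gathered after their values were seen.

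Further increases were of mixed function. Kbtbd8, a substrate adaptor of a cullin ubiquitin ligase, measured 1.58, 1.85 and 1.54 CPM in the controls and 3.32 to 4.9 CPM in the shRNA livers (median 4.4). Every shRNA liver was well above the controls (log2 fold change 1.36, standard error 0.20, adjusted p = 0.0228, exact permutation p = 0.0119). Like Fndc1, it met a naming rule that asks for no overlap, which holds this permutation p near its smallest value. Mis12, a kinetochore protein, measured 10.7, 11 and 10.9 CPM against 17.4 to 23.4 CPM (log2 fold change 0.93, standard error 0.11, adjusted p = 0.018). Fam98a rose by 0.62 on the log2 scale (adjusted p = 0.0216), with the 9 livers in separate ranges of 22.9, 22 and 20.7 CPM and 31.3 to 35 CPM. Bysl, needed to make the small ribosomal subunit (1.02, adjusted p = 0.0398), Cks1b, a partner of cyclin-dependent kinases (1.22, adjusted p = 0.0462), and Inhba, the activin A subunit (1.10, adjusted p = 0.0473), also rose. Outside the groups above, Khnyn, a cofactor of antiviral RNA decay, measured 37.3, 33.8 and 41.9 CPM against 18.4 to 23.9 CPM (log2 fold change -0.88, standard error 0.10, adjusted p = 0.018). Dnmbp, an exchange factor for CDC42 (-0.90, adjusted p = 0.018), and the endocytic adaptor Hip1 (-0.88, adjusted p = 0.018) fell to a like degree. Gnat1, known as the transducin alpha chain of rods (1.25, adjusted p = 0.0424), Hdhd3 (1.15, adjusted p = 0.0356) and Anks4b, a scaffold of microvilli (0.87, adjusted p = 0.0228), rose. The membrane protein gene Itm2a (-1.69, adjusted p = 0.0342), the adhesion receptor gene Adgrd1 (-1.64, adjusted p = 0.0305), Pkhd1l1 (-1.54, adjusted p = 0.0406) and the glutamine transporter gene Slc38a1 (-1.16, adjusted p = 0.0342) fell.

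The lists of mitosis and DNA replication genes had the largest positive medians of all lists, and 0 of their members passed. The 34 mitosis and G2 genes had a median of 1.08 and the 43 DNA replication genes of 0.68. The list mean of mitosis genes was -0.32, 0.22 and 0.10 in the controls, 1.42, 1.34 and -0.21 with lnc-Helf-sh1#, and 1.92, 0.57 and -0.04 with lnc-Helf-sh2#. Replicate 3 of each shRNA group was thus within the control range. Without both of these livers, an alternative chosen after seeing the data, 25 mitosis and 17 replication genes rose, and without replicate 3 of lnc-Helf-sh1# + CCl4 alone 13 and 4 did. Over all genes tested, 508 of 12958 rose in the first of these fits and 699 of 12984 in the second. Mki67, the proliferation antigen, measured 12.7, 19.4 and 21.6 CPM in the controls, 46, 41.3 and 11.9 CPM with lnc-Helf-sh1# and 61.3, 23.8 and 11 CPM with lnc-Helf-sh2# (0.86, adjusted p = 0.291). Pcna (0.60, adjusted p = 0.207) and Ccnd1 (1.14, adjusted p = 0.108) did not pass.

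The same livers were high for acute phase genes, which hepatocytes make under inflammation. The mean of that list was 1.12 in replicate 3 of lnc-Helf-sh1# + CCl4 and 1.47 in replicate 3 of lnc-Helf-sh2# + CCl4, against -0.53 to 0.30 in the other shRNA livers and -0.40 to 0.29 in the controls. Of its 29 genes 0 passed (median 0.50), and without both livers the median was -0.14.

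**Figure D5:**
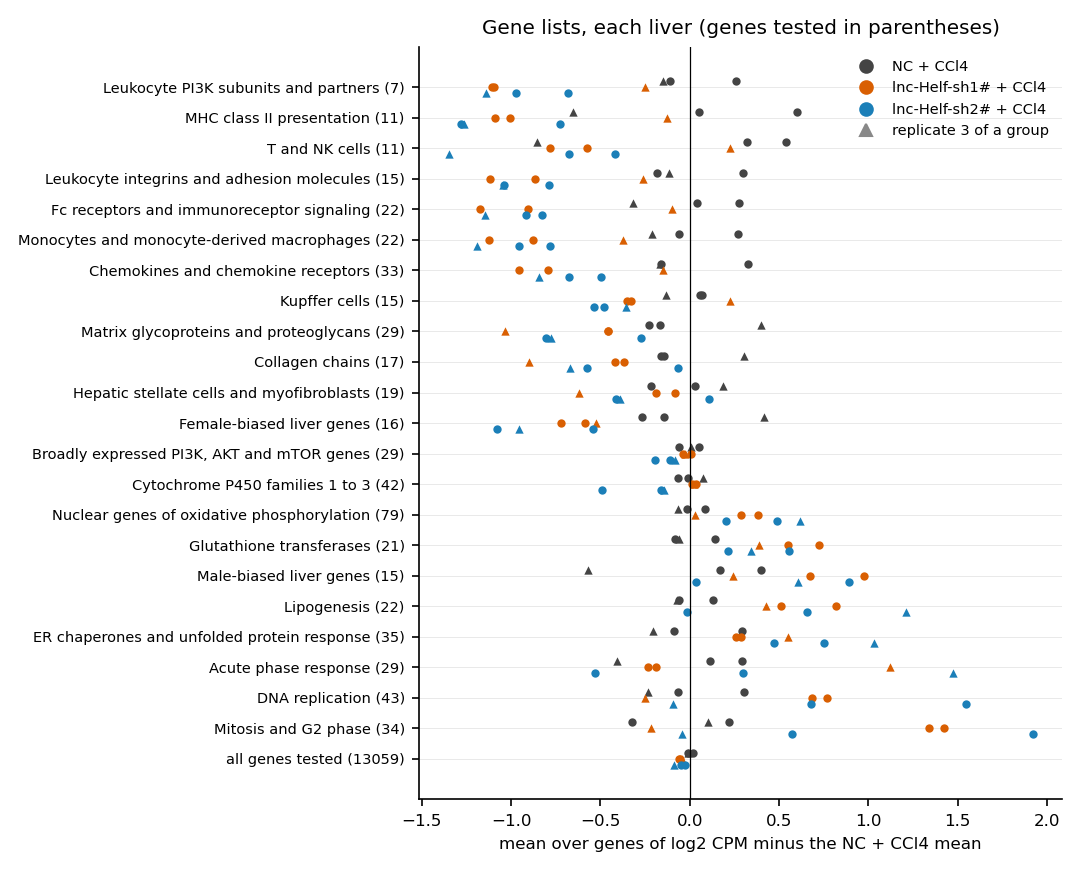
Mean over the genes of a list of log2 CPM minus the mean of the NC + CCl4 livers, 1 point per liver (gray controls, orange lnc-Helf-sh1# + CCl4, blue lnc-Helf-sh2# + CCl4, triangles replicate 3). Leukocyte lists lie left of 0 in most shRNA livers, and mitosis genes lie right of 0 in 4 shRNA livers but not in the replicates 3, at -0.21 and -0.04.

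Nuclear genes of oxidative phosphorylation shifted by little but in nearly all members, with 77 of 79 positive and a median of 0.36. Of them 1 rose, the ATP synthase subunit gene Atp5mpl (41.8, 34.5 and 34.5 CPM against 47 to 72.6 CPM, log2 fold change 0.63, standard error 0.15, adjusted p = 0.0496). Without replicate 3 of lnc-Helf-sh1# + CCl4 30 rose, without replicate 3 of both shRNA groups 20, and with DESeq2 23. Over all genes tested 699, 508 and 736 rose in these fits. With the length term 1 of the 79 rose and the median of the list was 0.20. These transcripts are short, with a median of 515 bases, and the shortest of the 5 classes of all genes had a median of 0.20. Genes of the cytosolic ribosome, of similar length at 555 bases, had a median of 0.16 with 0 genes past the test, and with the length term a median of -0.02 with 1 lower. Of 14 hepatocyte markers 12 were positive (median 0.30) and 0 passed.

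The hairpins were compared with each other in the same livers. In edgeR 0 genes differed between lnc-Helf-sh2# + CCl4 and lnc-Helf-sh1# + CCl4 (smallest adjusted p 0.308), and 1365 genes had an unadjusted p under 0.05, 10.5% of those tested. DESeq2 gave 67 genes at its adjusted p under 0.05, 10 of them with a fold change above 2, and 0 of these 67 were among the 158 called genes. At an unadjusted p under 0.05 in edgeR, 3 of the 158 differed between the hairpins, Bysl, Tlr8 and Pik3ip1, each further from the controls with shRNA2#. The pooled fit counts a difference between the hairpins as spread, so genes with such a difference were less likely to be called. The choice of the 158 thus held both of these counts low, and they do not show that the hairpins act alike. Each hairpin against the shared controls gave log2 fold changes of -2.26 and -2.70 for Fndc1, -1.30 and -1.70 for Pik3r5, -1.10 and -1.12 for Vsir, 1.39 and 1.34 for Kbtbd8, and 1.08 and 1.45 for Hsph1, with shRNA1# first. Fitted without the other hairpin's livers and against the same 3 controls, shRNA1# called 1 gene and shRNA2# 198. A p that misses the threshold does not show that the hairpins act alike, and replicate 3 of lnc-Helf-sh1# + CCl4, which stood apart, is 1 of the 3 livers behind the shRNA1# values.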

How the data were processed

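RNA of 9 livers was sequenced on a BGIseq500 in single-end reads of 50 bases. The study's methods describe 3 mice per group, and each library was taken as 1 mouse. If libraries were not separate mice, p-values measure only the spread between samples. The expected counts that the authors deposited are their RSEM estimates of reads per gene, not normalized, of which 8.15% are not whole numbers. The FPKM values the authors deposited, which are relative to depth and gene length, gave the effective lengths and served in alternative tests. The TPM values the authors deposited were not used further. BWA, Bowtie2 and RSEM, with no versions, and the build hg19 are listed in the submitters' processing notes, although 17198 of the 17305 rows carry gene numbers of mouse in RefSeq, so the build that was used is unclear. In 22 rows a symbol turned into a date was restored by its gene number.

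Expected counts were rounded and fitted in R 4.3.3 with edgeR 4.0.16 (TMM, filterByExpr with a minimum count of 10, glmQLFit and glmQLFTest, 2 arms, no covariates, 7 residual degrees of freedom). Benjamini-Hochberg adjustment ran over the 13059 genes tested. Genes past an adjusted p of 0.05 are said to rise or fall, and those with a fold change above 2 besides are called. The study's methods name no test for the sequencing comparison. Standard errors were the fold change on the log2 scale over the root of F. Counts of reads set the precision of low genes, and the biological coefficient of variation was 20.5%.

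The groups, the 56 gene lists and the tests were chosen with earlier results of these data known. Genes were named by a rule: the 15 highest and 15 lowest fold changes among called genes that average 50 or more normalized counts and do not overlap between the arms, unnamed gene models such as Gm3776 left out (10 higher and 78 lower met this), the 10 smallest adjusted p, up to 3 members of each list (not all of which are given), the called genes with the smallest p between the hairpins and the genes of the study. Other members of lists, Sulf1, Aebp1, Ddr2, Spi1, Stip1 and members of the tubulin, HSP70, HSP90 and DNAJ families were added after their values were seen. Alternatives were DESeq2 1.42.0, other scalings and filters, a fit of 3 groups, a robust fit, a replicate block, a test against a fold of 1.2, limma 3.58.1 on log2 FPKM plus 1 or 0.1, each hairpin alone and each library left out. A length term and the omission of replicate 3 of both shRNA groups were chosen after seeing the data. In simulated counts over 12940 genes for the pooled comparison, edgeR called 0% of the genes given a 1.5-fold change, which is below the fold threshold. It called 77.1% at 2.5-fold, 93.5% at 4-fold and 100% at 8-fold, and made 6 false calls. The simulated livers of an arm shared 1 mean per gene, and no liver or hairpin stood apart. Real livers did differ in this way, so these rates cannot be carried over to them. Figures were drawn in Python 3.11.15 with matplotlib 3.10.9.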

Additional observations from a re-analysis of the deposited data

Results flagged for a closer look

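Among the 6 shRNA livers, 143 genes and 56 lists were checked for a single liver far from the others, and 11 genes and 8 lists met Dixon's 95% criterion for the gap to the nearest liver over the range. Chance flags about 1 in 20. Of the 19, 16 were in replicate 3 of lnc-Helf-sh1# + CCl4, and these values are not independent of each other.

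That liver was the highest of the 6 for several genes of macrophages and other leukocytes. It stood at 73.1 CPM for Adgre1, 94.2 for the complement gene C1qc, 17.5 for the ectoenzyme Cd38, 21.2 for the guanylate-binding protein gene Gbp2b, 14.2 for the cytokine Il1b and 15.7 for the integrin Itga4. It was the lowest for the collagen VI chains Col6a1 (23.8 CPM) and Col6a2 (15.1 CPM), for Mmp2 (9.56 CPM) and for Id3 (22.9 CPM), an inhibitor of differentiation factors. As list means (log2 CPM minus the control mean), it was the highest for Kupffer cells (0.228), dendritic cells (-0.258), inflammatory cytokines and the inflammasome (0.204), Toll-like receptors and adaptors (0.0865), Fc receptors and immunoreceptor signalling (-0.100) and myeloid C-type lectins (-0.220).

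Replicate 1 of lnc-Helf-sh2# + CCl4 was the highest for fatty acid oxidation genes (0.0104) and the lowest for periportal genes of the urea cycle and amino acids (-0.330). Replicate 2 of the same group was the lowest for Tgfbr3 (4.05 CPM).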

How the results depend on the processing

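The 158 called genes became 385 with DESeq2, 408 with library totals only, 81 with limma on log2(FPKM + 1), 1 with shRNA1# libraries only, 468 without replicate 3 of both shRNA groups, and 0 in a test against a fold of 1.2. The 437 genes past the adjusted p became 1678 with DESeq2, 987 with library totals only, 770 in the fit of 3 groups, 803 with limma on log2(FPKM + 1), 1 with shRNA1# libraries only, 1224 without replicate 3 of both shRNA groups, and 0 in a test against a fold of 1.2. Leaving out 1 library gave 0 to 500 called genes and 0 to 1701 past the adjusted p. With a replicate block 0 genes passed (smallest adjusted p 0.0524). Deviations from the group means correlated at -0.42 to 0.22 between same-numbered livers and at -0.22 to 0.34 between the others. These ranges overlap and cannot tell whether the numbers pair the samples. Between the hairpins 0 genes were called, 10 with DESeq2, and 1 without replicate 1 and 1 without replicate 3 of lnc-Helf-sh2# + CCl4. Ptbp1 turned from 0.14 to -0.00192 and -0.00196 in limma on log2 FPKM plus 1 and plus 0.1, where the cause was not tested. The causes of the other shifts were not tested either. The median of all genes was -0.0958 and -0.134 in these limma fits, against 0.016 with TMM. At these depths genes of a few CPM rest on few reads.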

Other observations

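Gbp5 and Gbp2b, genes of guanylate-binding proteins, which interferon induces for defence inside cells, fell. Gbp5 measured 7.1, 7.23 and 4.4 CPM in the NC + CCl4 livers and 1.66 to 4.41 CPM in the shRNA livers, where the highest value was from replicate 3 of lnc-Helf-sh1# + CCl4 and just above the lowest control (log2 fold change -1.22, standard error 0.29, adjusted p = 0.0485, edgeR). Of 34 interferon-stimulated and guanylate-binding genes, these 2 fell (Gbp2b at -1.52, adjusted p = 0.0462), and the median was -0.51, with list means of -0.69 to 0.40 in the controls. Without replicate 3 of lnc-Helf-sh1# + CCl4, 11 fell and 1 rose, and with a length term 1 fell. Over all genes tested 2.34% fell with all livers, 1002 of 12984 without that liver and 244 of 13059 with the length term. Pltp, which transfers phospholipids between lipoproteins, fell without overlap (95.2, 59.1 and 96.1 CPM against 25.6 to 55.7 CPM, log2 fold change -1.17, standard error 0.24, adjusted p = 0.037), and Muc16, a mucin of mesothelial cells, fell as well (10.5, 8.91 and 27.5 CPM against 2.96 to 7.14 CPM, log2 fold change -1.87, standard error 0.36, adjusted p = 0.0356). Fbxo32, a ubiquitin ligase subunit known from muscle wasting, measured 10.5, 5.21 and 9.77 CPM against 1.8 to 3.74 CPM (log2 fold change -1.58, standard error 0.26, adjusted p = 0.0257). Thrsp, a lipogenic protein of hepatocytes, measured 80.8, 107 and 72.9 CPM in the controls, 394, 425 and 189 CPM with lnc-Helf-sh1# and 65.4, 248 and 798 CPM with lnc-Helf-sh2#, and did not pass (2.02, adjusted p = 0.0728).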
